A study of Caenorhabditis elegans with 7 samples.

Results

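The tubulin, kinesin and dynein genes of Caenorhabditis elegans code for the subunits of microtubules and for the motors that walk along them. Members were taken by gene symbol from the probe sets that the platform annotation assigns to a single gene: the tubulins (tba-, tbb- and tbg- symbols, mec-7 and mec-12), the kinesins (klp- symbols, unc-104, unc-116 and bmk-1) and the dynein and dynactin subunits (dhc-, dli-, dlc-, dyci-, dyrb- and dnc- symbols). This gave 47 genes of the 17138 genes with such a probe set. A gene with several such probe sets is represented by the brightest, judged by its mean over all 7 arrays, and no difference between groups entered the choice.

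The study asked which transcripts respond when wild-type N2 nematodes eat 13L, a peptide identified in a cocoa by-product. The 13L given to the worms on these arrays was synthetic. Whole worms were raised on Nematode Growth Medium (NGM) plates, the control group with 4 arrays, or on the same plates holding 13L at 1 µg/mL, the treated group with 3 arrays. Both groups held the same strain without any transgene, grown for 3 days at 20 °C to the young adult stage. RNA was hybridised to Affymetrix C. elegans arrays, and the study calls its replicates biological; the labels do not add which cultures they came from, so p-values measure the spread between these arrays. The arrays carry the names SL1, SL5, SL9 and SL69 in the NGM group and SL4, SL8 and SL12 in the 13L group, and array values are given in that order throughout.

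Microtubules are hollow polymers of alpha and beta tubulin, and gamma tubulin starts their growth at centrosomes and other organising centres. Most kinesins carry cargo or push spindle fibres towards the plus end of the polymer, whereas cytoplasmic dynein, helped by the dynactin complex, pulls towards the minus end. In the worm these proteins build the meiotic and mitotic spindles of germline and embryo, the tracks of axonal transport, the cilia of sensory neurons, and the unusually thick microtubules of the touch receptor neurons, which contain the isotypes MEC-7 and MEC-12.

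Values are the deposited log2 expression values, and every difference is 13L minus NGM on that scale. Of 22548 probe sets tested, none passed an adjusted p (Benjamini-Hochberg) of 0.05 in limma's moderated test, so the share called was 0%, and the lowest adjusted p was 0.944. The array medians lay between 1.01 and 1.06, and pairs of arrays correlated at 0.982 to 0.995 across probe sets. The 5 yeast control probe sets, which match no worm transcript, had means up to 0.74, and 37 of the 47 members had a mean above that level. The other 10 members were tba-5, tba-6, tba-8, klp-6, klp-13, klp-17, dhc-3, dhc-4, dlc-4 and dlc-6, for which the signal cannot be told from unspecific hybridisation. Probe sets whose names end in _s_at or _x_at can hybridise with more than 1 transcript, and they stood for 24 and 4 members.

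No member differed between 13L and NGM at an adjusted p of 0.05. At an unadjusted p under 0.05 in limma's moderated test, 1 member was higher in 13L, tbg-1, against 2.0% of all genes. In the other direction 2 members, tba-7 and mec-7, were lower, against 2.72% of all genes. For 0 of the 47 members did the 13L arrays all lie on the same side of all NGM arrays, a pattern found for 5.81% of all genes. The differences ran from -0.52 to 0.32, with 21 above zero and 26 below. That is 44.7% above zero, against 50.4% of all genes. The median difference was -0.03 over the members and 0.00 over all genes. Title numbers were read as runs (SL1 with SL4, SL5 with SL8, SL9 with SL12), although the labels name no batch. Within these runs, deviations from the group means correlated at 0.53, 0.16 and 0.54 across probe sets. Pairs of an NGM and a 13L array from different runs ranged from -0.44 (SL1 with SL12) to 0.21 (SL5 with SL12), so SL5 with SL8 did not stand out. With these runs as blocks, a fit in which SL69 no longer enters the difference, 1 member was higher and 3 were lower (tba-7, dyci-1 and dlc-2), against 3.04% and 4.29% of all genes. The lowest adjusted p of that fit in limma was 0.180 over all probe sets and 0.587 over the members.

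**Figure D1:**
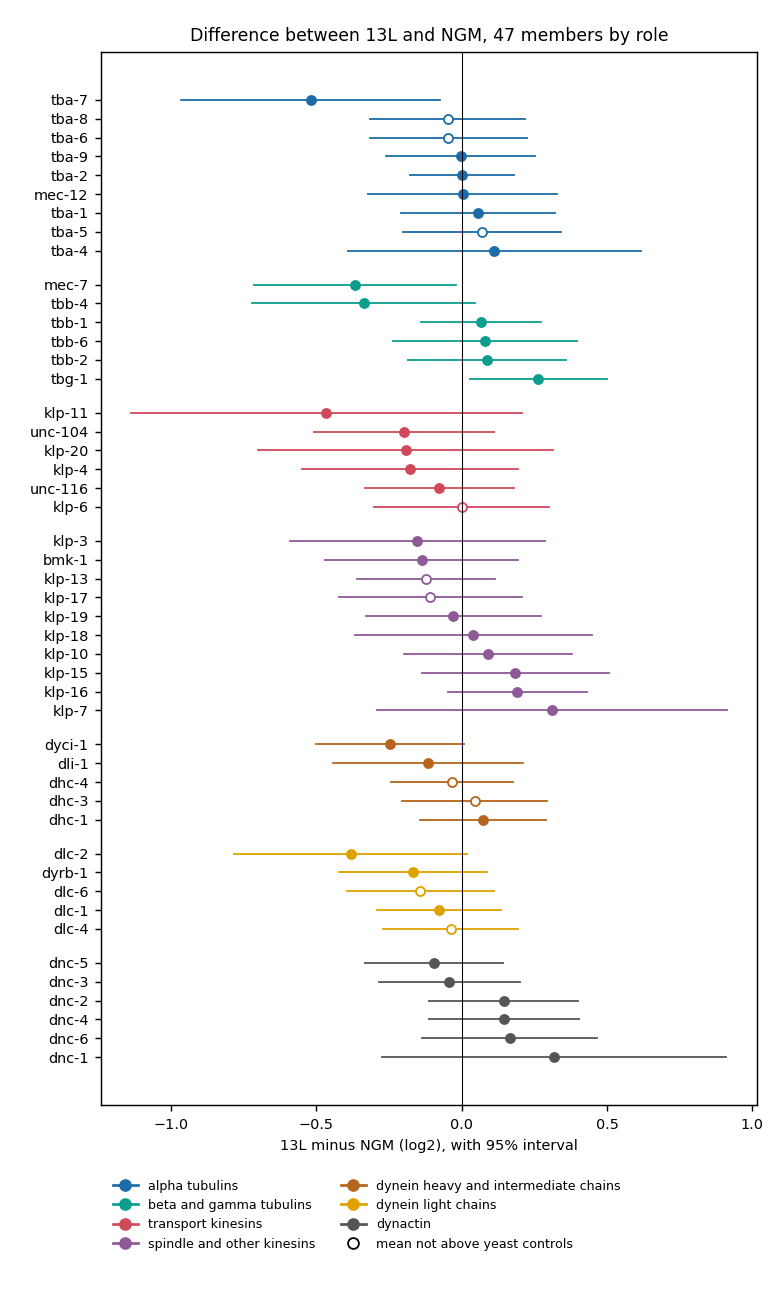
Each dot is the difference between 13L and NGM (log2, horizontal axis) of a member, with its 95% interval from limma as a line, and colours give the role. The intervals of tba-7 and mec-7 lie below zero and that of tbg-1 above it, while the other members' intervals include zero; open dots mark the 10 members not above the yeast controls.

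Precision differed between members. Standard errors of the differences ran from 0.08 to 0.30. For 32 members the 95% interval lay within 0.5 of zero on the log2 scale, while for 15 it reached further. The pooled SD between arrays of a group was 0.03 to 0.50, with a median of 0.16 over members and 0.15 over all genes.

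The alpha tubulins form 1 part of the tubulin dimer, and 5 of the 9 had a difference above zero, with a median of 0.00. The broadly expressed isotypes tba-1 and tba-2 had small differences. For tba-2 the values were 9.40, 9.33, 9.42 and 9.41 on NGM and 9.38, 9.41 and 9.39 on 13L. All 7 arrays fell within a narrow band, which gave the smallest spread of any member, and the difference was 0.00 with a 95% interval from -0.18 to 0.18. Values of tba-1 were 8.78, 8.45, 8.61 and 8.80 against 8.76, 8.83 and 8.57. The groups overlapped, and the interval of the difference (0.06) ran from -0.21 to 0.32. These isotypes resemble each other closely in sequence, and their brightest sets allow cross-hybridisation, so the values of single isotypes are uncertain.

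The difference furthest from zero among the 47 members belonged to tba-7, an alpha tubulin isotype described as lowering microtubule stability in touch receptor neurons. Its values were 1.63, 1.87, 1.40 and 2.06 on NGM and 0.87, 1.21 and 1.58 on 13L. The SL4 and SL8 arrays were below every NGM array, but SL12 lay above SL9, so the groups overlapped. The difference was -0.52 ± 0.20 (SE), with a 95% interval from -0.97 to -0.07 (limma, unadjusted p = 0.0273, adjusted p = 0.944). An exact two-sided permutation test over the arrays gave p = 0.114, and the smallest p that 4 against 3 arrays allow is 0.0571. Without SL5 the difference was -0.48 (limma, unadjusted p = 0.0634), without SL69 it was -0.41 (unadjusted p = 0.0673), without SL4 it was -0.35 (unadjusted p = 0.121) and without SL8 it was -0.51 (unadjusted p = 0.0673). It was larger without SL9, at -0.63 (unadjusted p = 0.010), and without SL12, at -0.70 (unadjusted p = 0.00703).

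The touch receptor isotype mec-12, which carries the acetylation site of alpha tubulin, had 1.45, 1.58, 1.48 and 1.74 on NGM and 1.24, 1.66 and 1.81 on 13L. Both the lowest and the highest array were 13L arrays, and the difference was 0.00 with an interval from -0.32 to 0.33. For tba-5, an isotype of ciliated neurons whose mean was not above the yeast controls, the arrays read 0.89, 0.56, 0.48 and 0.55 against 0.61, 0.62 and 0.84. The groups overlapped and the difference was 0.07. The other alpha tubulins, tba-4, tba-6, tba-8 and tba-9, had differences from -0.05 to 0.11.

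Beta tubulin is the subunit that hydrolyses its nucleotide after assembly, and gamma tubulin is the nucleator. Of the 6 members, 4 had a difference above zero, and the median was 0.07. The 2 broadly expressed beta isotypes had small differences. Values of tbb-1 were 8.51, 8.44, 8.59 and 8.67 on NGM and 8.68, 8.63 and 8.54 on 13L, a difference of 0.07 with an interval from -0.14 to 0.27. Values of tbb-2 were 8.57, 8.47, 8.41 and 8.34 against 8.76, 8.52 and 8.32. SL4 was the highest array and SL12 the lowest, both in the 13L group, and the difference was 0.09 with an interval from -0.18 to 0.36.

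The gamma tubulin gene tbg-1 was the member higher in 13L at an unadjusted p under 0.05. Its values were 5.45, 5.23, 5.22 and 5.33 on NGM and 5.70, 5.41 and 5.61 on 13L. SL4 and SL12 were above every NGM array, and SL8 lay just under SL1, so the groups overlapped by that pair alone. The difference was 0.26 ± 0.10 (SE), or 1.2-fold, with an interval from 0.03 to 0.50 (limma, unadjusted p = 0.0329, adjusted p = 0.944). It was 0.24 without SL5 (unadjusted p = 0.0778), 0.24 without SL9 (unadjusted p = 0.0761), 0.20 without SL4 (unadjusted p = 0.123) and 0.25 without SL12 (unadjusted p = 0.0815). It was 0.31 without SL1 (unadjusted p = 0.0212) and 0.34 without SL8 (unadjusted p = 0.0153). The exact two-sided permutation test over all 7 arrays gave p = 0.114 for tbg-1. The genes gip-1 and gip-2, whose products form the nucleating complex together with gamma tubulin, had differences of 0.15 and 0.12 (limma, unadjusted p = 0.202 and 0.291).

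The touch receptor isotype mec-7 was lower in 13L at an unadjusted p under 0.05. Its values were 3.49, 3.82, 3.69 and 4.05 on NGM and 3.45, 3.58 and 3.14 on 13L. SL4 and SL12 were below every NGM array and SL8 lay between SL1 and SL9. The difference was -0.37 ± 0.15 (SE), with an interval from -0.72 to -0.02 (limma, unadjusted p = 0.0403, adjusted p = 0.944). The exact two-sided permutation test over the arrays gave p = 0.114 for this set. A second and dimmer probe set of mec-7 read 0.99, 1.04, 0.90 and 1.41 against 0.71, 1.03 and 0.79. It differed in the same direction, by -0.24, and the groups overlapped again (unadjusted p = 0.118). The names of these sets end in _s_at and _x_at, so both can hybridise with other transcripts and the mec-7 values are uncertain. The brightest set gave -0.35 without SL5 (limma, unadjusted p = 0.0807), -0.39 without SL9 (unadjusted p = 0.0512), -0.27 without SL69 (unadjusted p = 0.0943), -0.40 without SL4 (unadjusted p = 0.0656) and -0.24 without SL12 (unadjusted p = 0.161). It gave -0.46 both without SL1 (unadjusted p = 0.0153) and without SL8 (unadjusted p = 0.0281), and -0.27 with the title runs as blocks (unadjusted p = 0.0558). Over other settings of the fit to all arrays, the unadjusted p of this set in limma ran from 0.0392 (arrays centred on their medians) to 0.0612 (array weights).

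Because RNA came from whole worms, a change within touch receptor neurons and a change in their share of the total RNA cannot be told apart. Among 13 marker genes of these neurons, 5 had a difference above zero and the median was -0.01. At an unadjusted p under 0.05, 1 marker was lower in 13L, the acetyltransferase gene mec-17, against 2.72% of all genes. None was higher, against 2.0% of all genes. Of the 13, 7 (mec-1, mec-3, mec-6, mec-9, mec-10, mec-14 and mec-18) were not above the yeast controls. Summed on the linear scale, the markers reached 86 to 96.8 on NGM and 84.9 to 101 on 13L, and these ranges overlap. The channel subunit gene mec-4 and its partner mec-2, both above the controls, had differences of -0.02 and 0.04. Of 20 pan-neuronal genes, 6 had a difference above zero, the median was -0.18, and the summed level was 256 to 276 on NGM and 241 to 249 on 13L. These ranges do not overlap, nor do the medians over the list on each array, 2.11 to 2.19 on NGM and 2.0 on each 13L array. How often other lists of 20 genes separate in this way was not tested. At an unadjusted p under 0.05 in limma's test 2 of the 20 were lower, unc-31 and egl-21, against 2.72% of all genes. None of the 20 was higher, against 2.0% of all genes. The pan-neuronal genes aex-3, rgef-1, sng-1 and unc-31 were not above the yeast controls. The part of neuronal RNA in the lower mec-7 value was not tested.

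In the same class, tbb-4, a beta tubulin of sensory cilia named after its values were seen, had 1.55, 1.21, 1.21 and 1.88 on NGM and 1.04, 1.29 and 1.05 on 13L. SL4 and SL12 were below every NGM array, but SL8 was above SL5 and SL9. The difference was -0.34 with an interval from -0.72 to 0.05 (limma, unadjusted p = 0.0771). Of 30 marker genes of ciliated neurons, 12 had a difference above zero and the median was -0.02. At an unadjusted p under 0.05 in limma's test 1 was lower, che-10, against 2.72% of all genes, and none was higher. Of the 30, 22 were not above the yeast controls, among them osm-5, osm-6, tax-2 and tax-4. The summed level was 106 to 133 on NGM and 103 to 114 on 13L, ranges that overlap. That sum rests most on the brightest genes, odr-4 and daf-19, with means of 5.58 and 4.26. Their part in the tbb-4 value was not tested.

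**Figure D2:**
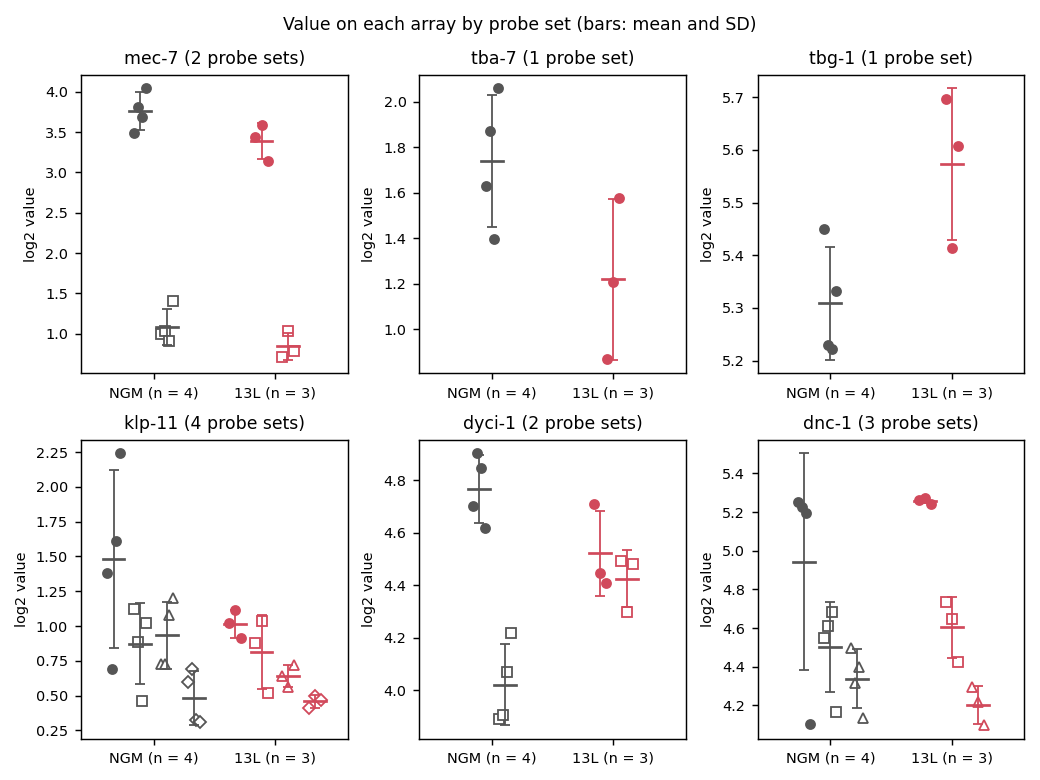
Log2 values on each array (dots) of 6 members, NGM in grey and 13L in red, with filled symbols for the brightest probe set, open symbols for the other sets, and bars for mean and SD. The 13L and NGM arrays overlap in each panel except for the dimmer dyci-1 set, which was higher in all 3 13L arrays, and the third of the klp-11 sets, which was lower in them by a small margin.

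The transport kinesins move vesicles, organelles and the trains of proteins that build cilia. Here 5 of the 6 had a difference below zero, and the median was -0.19. None reached an unadjusted p under 0.05. The pan-neuronal genes, as given beside mec-7, had a median difference of -0.18 and summed levels that did not overlap between groups, and their part in the kinesin values was not tested. For unc-104, the motor of synaptic vesicle precursors, values were 2.23, 1.77, 2.28 and 1.88 on NGM and 1.89, 1.78 and 1.86 on 13L. SL1 and SL9 stood above the rest, and the 13L arrays lay close to the other NGM arrays. The difference was -0.20 with an interval from -0.51 to 0.11 (limma, unadjusted p = 0.181), and a second set gave -0.03. The conventional kinesin heavy chain unc-116 had 7.06, 7.29, 7.37 and 7.48 against 7.19, 7.18 and 7.30. The groups overlapped, with a difference of -0.08 on this set and 0.07 on the other. Its light chain genes klc-1 and klc-2 differed by 0.15 and -0.18.

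Heterotrimeric kinesin, which enters sensory cilia, consists of KLP-11, KLP-20 and the associated protein KAP-1. Its motor gene klp-11 showed the widest spread of all members. Its values were 1.38, 0.69, 1.61 and 2.24 on NGM and 1.02, 1.11 and 0.91 on 13L. The NGM arrays reached both further down (SL5) and further up (SL69) than the 13L arrays, which lay close together. The difference was -0.47 ± 0.30 (SE), with an interval from -1.14 to 0.21 (limma, unadjusted p = 0.151). It was -0.73 without SL5 (unadjusted p = 0.00820) and -0.21 without SL69 (unadjusted p = 0.360). The other 3 probe sets of klp-11 differed by -0.06, -0.29 and -0.02. For klp-20 the difference was -0.19 (unadjusted p = 0.411) and for kap-1 it was -0.01 (unadjusted p = 0.923). The homodimeric ciliary motor gene osm-3, not above the yeast controls, differed by -0.18 (unadjusted p = 0.141). Of the rest, klp-4, a motor of glutamate receptor transport, and klp-6, a motor of male sensory cilia, had -0.18 and 0.00.

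The remaining kinesins act mainly on spindles and chromosomes, and 5 of the 10 had a difference above zero, with a median of 0.01. The 2 with the largest statistics were klp-15 and klp-16, near-identical minus-end motors of the meiotic spindle. Values of klp-16 were 4.84, 4.98, 5.02 and 4.74 on NGM and 5.18, 5.13 and 4.95 on 13L. SL4 and SL8 were above all NGM arrays, while SL12 lay among them, and the difference was 0.19 with an interval from -0.05 to 0.43 (limma, unadjusted p = 0.105). The dim second set of klp-16 gave -0.05. Values of klp-15 were 5.43, 5.81, 5.88 and 5.33 against 5.80, 5.80 and 5.80. The 3 13L arrays agreed to the second decimal, within the NGM range, and the difference was 0.18 (unadjusted p = 0.228). Hybridisation may not keep such close copies apart, so both values are uncertain.

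For klp-7, a depolymerase that takes tubulin off microtubule ends, values were 2.93, 3.03, 3.80 and 2.53 on NGM and 3.45, 3.09 and 3.62 on 13L. SL9 was the highest array and SL69 the lowest, both on NGM. The difference was 0.31 with an interval from -0.29 to 0.91 (limma, unadjusted p = 0.274), and it was 0.55 without SL9 (unadjusted p = 0.0139) and 0.13 without SL69 (unadjusted p = 0.603). The bipolar spindle motor gene bmk-1 had 5.94, 6.04, 5.83 and 6.18 against 6.08, 5.98 and 5.53. SL12 was the lowest array, SL4 and SL8 lay within the NGM range, and the difference was -0.14 (-0.18 on the other set). The chromokinesin gene klp-19 differed by -0.03 and the meiotic spindle gene klp-18 by 0.04. The klp-10 locus, which RefSeq lists as a pseudogene, differed by 0.09. A probe set that the annotation assigns to klp-10 and klp-18 together was left out of the members and differed by 0.01. The klp-12 probe set carries a pair of gene identifiers, so klp-12 is no member; its difference was -0.24 (unadjusted p = 0.218).

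Oocyte and germline genes, measured beside the spindle motors, showed small positive medians, and embryo genes a negative median. Of 18 oocyte and eggshell genes, all above the yeast controls, 14 had a difference above zero, with a median of 0.11 and a summed level of 4489 to 5229 on NGM and 4623 to 5675 on 13L. Of 21 germline genes, also all above the controls, 13 had a difference above zero, with a median of 0.06 and sums of 1820 to 2046 and 2008 to 2072. Of 16 embryo genes, 4 had a difference above zero, with a median of -0.17 and sums of 187 to 235 on NGM and 164 to 215 on 13L. In each list the ranges overlapped between groups. At an unadjusted p under 0.05 in limma's test, 2 oocyte and eggshell genes were higher and none lower. Of the germline genes 1 was higher and 1 lower, and of the embryo genes none was higher and 2 were lower. The shares of all genes were 2.0% and 2.72%. Their part in the values of tbg-1, klp-15 and klp-16 was not tested.

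Cytoplasmic dynein is built on a heavy chain that holds the motor, with intermediate and light intermediate chains that bind cargo adaptors. Of these 5 members, 2 had a difference above zero and the median was -0.03. The heavy chain gene dhc-1 read 6.62, 6.50, 6.52 and 6.75 on NGM and 6.75, 6.62 and 6.64 on 13L. The groups overlapped fully, with a difference of 0.07 and an interval from -0.14 to 0.29. The ciliary dynein heavy chain gene che-3 differed by 0.02. The light intermediate chain gene dli-1 had 3.48, 3.76, 3.96 and 3.83 against 3.83, 3.70 and 3.39. SL12 was lowest, next to SL1 of the NGM group, and the difference was -0.12 (limma, unadjusted p = 0.442).

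The intermediate chain gene dyci-1 gave opposite results on its 2 probe sets. On the brighter set, values were 4.70, 4.90, 4.85 and 4.62 on NGM and 4.71, 4.45 and 4.41 on 13L. SL8 and SL12 lay below every NGM array and SL4 among them, so the difference was -0.25 with an interval from -0.50 to 0.01 (limma, unadjusted p = 0.0572, adjusted p = 0.944). On the dimmer set, values were 3.89, 3.91, 4.07 and 4.22 on NGM and 4.49, 4.30 and 4.48 on 13L. Every 13L array was above every NGM array there, and the difference was 0.40 ± 0.11 (SE) with an interval from 0.15 to 0.65 (limma, unadjusted p = 0.00539). The exact permutation p of that set was 0.0571, the smallest the design allows, and the set was picked out after both values were seen. The brighter set gave -0.30 without SL69 (limma, unadjusted p = 0.0342) and -0.34 without SL4 (unadjusted p = 0.0195), and -0.30 with the title runs as blocks (unadjusted p = 0.0420). It gave -0.27 without SL1 (unadjusted p = 0.0672), -0.20 without SL5 (unadjusted p = 0.135) and -0.22 without SL9 (unadjusted p = 0.117). Without SL8 it gave -0.21 (unadjusted p = 0.158), and without SL12 -0.19 (unadjusted p = 0.174). Trend and robust settings gave an unadjusted p of 0.0905 in limma. The mean of both sets differed by 0.08 (limma, unadjusted p = 0.410). The annotation gives both sets the same gene and does not say which transcript each reads, and the cause of the opposite signs was not tested.

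**Figure D3:**
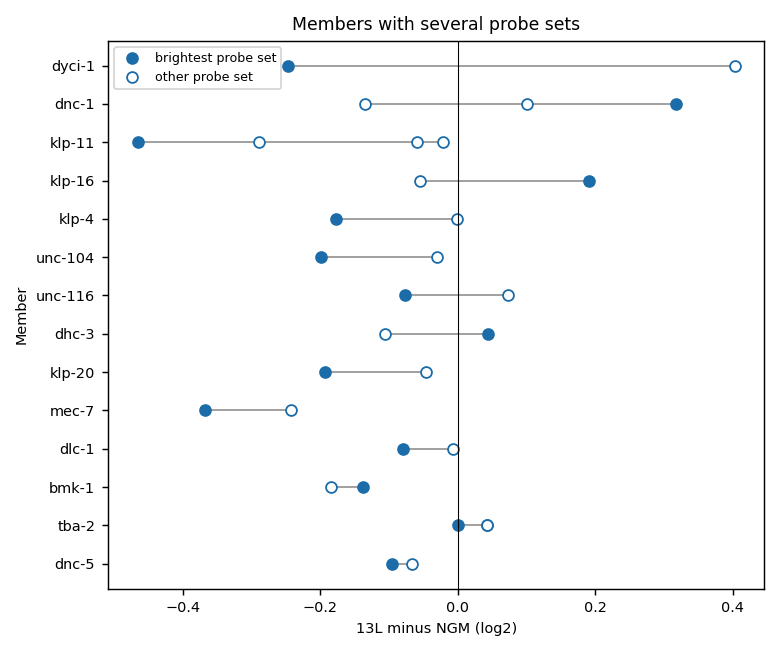
Differences between 13L and NGM (log2, horizontal axis) of every single-gene probe set of the 14 members that have several, with a filled dot for the brightest set and open dots for the others. The sets of dyci-1 lie furthest apart, at -0.25 and 0.40, followed by those of dnc-1.

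Of the 14 members with several probe sets, 9 had all differences on the same side of zero and 5 did not: dyci-1, dnc-1, klp-16, unc-116 and dhc-3. Only dyci-1 had sets more than 0.5 apart. Where the sets of a member differed in sign, the counts above rest on the brightest.

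The light chains of dynein, small dimers that join the intermediate chains to cargo, all had a difference below zero: 0 of 5 were above, with a median of -0.14. None reached an unadjusted p under 0.05. Values of dlc-2 were 2.13, 2.45, 2.23 and 2.12 on NGM and 1.52, 1.74 and 2.29 on 13L. SL4 and SL8 were below every NGM array, whereas SL12 was the second highest of all, and the difference was -0.38 with an interval from -0.78 to 0.02 (limma, unadjusted p = 0.0591). It was -0.60 without SL12 (limma, unadjusted p = 0.00179), -0.22 without SL4 (unadjusted p = 0.247) and -0.42 with the title runs as blocks (unadjusted p = 0.0249). The roadblock light chain gene dyrb-1 had 4.78, 4.94, 4.84 and 4.89 against 4.50, 4.68 and 4.91. The same pair, SL4 and SL8, lay below every NGM array, and the difference was -0.17 (unadjusted p = 0.174). It was -0.27 without SL12 (unadjusted p = 0.0320) and -0.07 without SL4 (unadjusted p = 0.572). The gene dlc-1, for the conserved light chain that also binds many other proteins, differed by -0.08, and dlc-4 and dlc-6 by -0.04 and -0.14, both not above the yeast controls.

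Dynactin links dynein to cargo and keeps it on the microtubule. Of its 6 members, 4 had a difference above zero, with a median of 0.14. The gene dnc-1, for the large Glued subunit, read 5.25, 5.23, 5.19 and 4.10 on NGM and 5.26, 5.27 and 5.24 on 13L. A single NGM array, SL69, lay far below the other 6, which were within a narrow band. The difference was 0.32 with an interval from -0.27 to 0.91 (limma, unadjusted p = 0.255), and without SL69 it was 0.04 (unadjusted p = 0.679). The other sets of dnc-1 gave 0.10 and -0.13. On the first of these SL69 was again the lowest array, at 4.17 against 4.43 to 4.73 on the other 6.

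The dynamitin gene dnc-2 had 5.35, 5.62, 5.66 and 5.70 on NGM and 5.82, 5.59 and 5.77 on 13L. SL4 and SL12 were above every NGM array and SL8 lay among them, with a difference of 0.14 (limma, unadjusted p = 0.236). For dnc-4, a subunit of the pointed-end complex, values were 5.14, 5.11, 4.97 and 4.98 against 5.19, 5.40 and 4.99. Again the groups overlapped, by SL12, and the difference was 0.15 (unadjusted p = 0.235). The remaining members dnc-3, dnc-5 and dnc-6 ranged from -0.10 to 0.16. The actin-related protein gene arp-1, whose product forms the filament of dynactin, differed by 0.42 (unadjusted p = 0.0711).

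**Figure D4:**
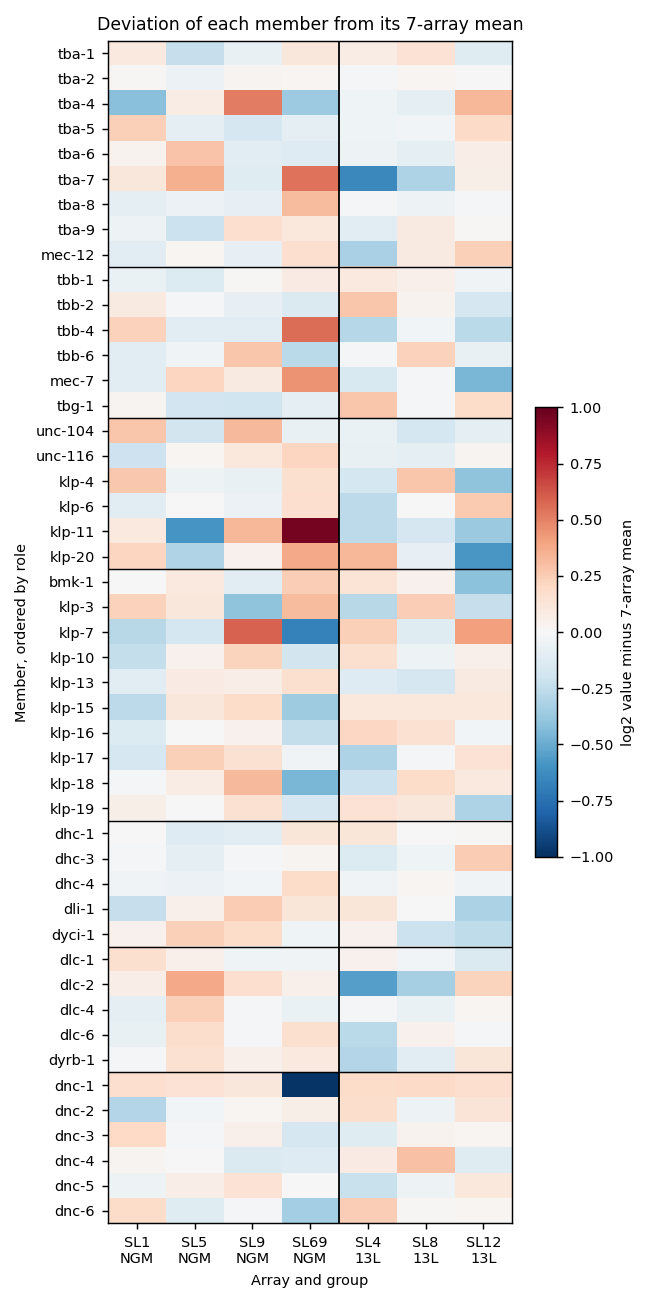
Deviation of each member (vertical axis, ordered by role) from its own mean over the 7 arrays (colour, log2), with the NGM arrays on the left and the 13L arrays on the right. No role shows a uniform colour change across the line between groups; the strongest deviations, in klp-11 and dnc-1, are on the NGM array SL69.

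Single arrays carried much of the spread. SL69 was the highest array for 12 members and the lowest for 9, and the largest deviations from a member's mean were on it, -0.98 for dnc-1 and 0.96 for klp-11. SL9 was also highest for 12 members. Among 13L arrays, SL4 was lowest for 10 members and SL12 for 9, whereas SL8 was lowest for 1. As shares, SL69 was highest for 25.5% of members and 17.4% of all genes, and lowest for 19.1% and 17.4%. SL9 was highest for 25.5% of members and 13.7% of all genes. SL4 was lowest for 21.3% and 11.9%, SL12 for 19.1% and 16.8%, and SL8 for 2.1% and 13.2%. All members were read on the same arrays, so these shares are a description.

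Other genes of the microtubule system were taken from a list arranged by role, of which 88 of 97 had a single-gene probe set. Among these chaperones, nucleators, adaptors and modifying enzymes, 45 had a difference above zero and the median was 0.01. At an unadjusted p under 0.05, 1 was higher and 2 were lower, against 2.0% and 2.72% of all genes, and none passed the adjusted threshold. In 6 of the 88 the groups did not overlap, against 5.81% of all genes. The dynein regulator gene lis-1 had 4.09, 4.18, 4.19 and 3.95 on NGM and 3.89, 3.88 and 3.82 on 13L. Every 13L array was below every NGM array, SL4 and SL69 lying close together, and the difference was -0.24 (limma, unadjusted p = 0.0294, adjusted p = 0.944). Its partners nud-1 and nud-2 differed by 0.09 and -0.04.

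The acetyltransferase gene mec-17, which modifies MEC-12 in touch receptor neurons and stands in both this list and that of their markers, had 1.79, 2.10, 1.95 and 2.48 on NGM and 1.78, 1.55 and 1.79 on 13L. The groups did not overlap, though SL1 and SL12 were equal to the second decimal, and the difference was -0.37 (limma, unadjusted p = 0.0430). The ciliary dynein gene xbx-1 had 0.38, 0.59, 0.60 and 0.62 against 0.93, 0.64 and 0.92. All 13L arrays were higher, with a difference of 0.28 (unadjusted p = 0.0301), but its mean was not above the yeast controls. The cytokinesis kinesin gene zen-4 had 6.68, 6.77, 6.73 and 6.73 against 6.55, 6.65 and 6.29. All 13L arrays were lower, and the difference was -0.23 (unadjusted p = 0.0566).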

How the data were processed

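The data were the log2 expression values that the authors deposited for 7 Affymetrix arrays, made with RMA (background correction, quantile normalisation and summarisation per probe set); RMA and limma are named in the submitters' processing notes without versions. What offset the log2 scale has is not stated, so ratios are relative to it. A further 13L replicate that the study mentions was not analysed here. Precision was limited by the number of arrays.

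Of 22625 probe sets, 77 Affymetrix controls were left out. The platform annotation gave 20766 a single gene, 887 several and 895 none. Differences were fitted over 22548 probe sets with lmFit and eBayes (limma 3.58.1, R 4.3.3), two-sided, with Benjamini-Hochberg adjustment over all of them. For single values, exact permutation tests over arrays were run in Python 3.11.15 with SciPy 1.17.1. The fit was checked on simulated data. No 2 arrays were identical.

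Correlations of array deviations from the group means were 0.53 (SL1 and SL4), 0.16 (SL5 and SL8) and 0.54 (SL9 and SL12); the runs were read from the array titles and are not stated as batches, and SL5 correlated more with SL12 (0.21) than with SL8.

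The members and lists were chosen with earlier results of these data known. Named members were those at an unadjusted p under 0.05, the 2 per role with the largest moderated statistic, 12 genes named in any case, the 3 with the largest spread and those with probe sets over 0.5 apart, which made 24 of 47; further members were named after their values were seen. Named partners were the 4 with the largest statistic and those completing a motor. The marker lists not described with the results were sperm (24 genes measured, 14 above zero, median 0.03), intestine (15, 5, -0.08), body wall muscle (16, 6, -0.04) and hypodermis (16, 5, -0.07). Alternatives were each array left out, array weights, cyclic loess, arrays centred on their medians, limma with a variance trend and robust fitting, a filter at the yeast controls, only probe sets ending in _at, gene means, blocks of title numbers and the next brightest probe set, the last chosen after seeing the data.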

Additional observations from a re-analysis of the deposited data

Results flagged for a closer look

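In 4 of the 65 single-gene probe sets of the members, 1 NGM array stood apart from the other 3 by Dixon's criterion. Chance sets apart about 1 in 20 groups. For dnc-1 the value on SL69 was 4.10 against 5.19 on the nearest array. For tba-8, which was not above the yeast controls, SL69 read 1.05 against 0.67, and for dhc-4, also not above them, it read 0.54 against 0.33. On the dimmer probe set of bmk-1, SL1 read 5.94 against 5.65. SL69 was thus the array that stood apart in 3 of the 4 sets. The 13L group, with 3 arrays, was too small for this criterion.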

How the results depend on the processing

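No fit gave a probe set with an adjusted p under 0.05. With 1 array left out in turn, the members with no overlap between the groups numbered 1 to 7, or 2.1% to 14.9%, against 9.42% to 14.2% of all genes, since fewer arrays separate more often. Members higher in 13L at an unadjusted p under 0.05 numbered 0 to 1 (1.61% to 2.39% of all genes) and those lower 1 to 3 (1.85% to 3.36%). Of the 88 partners, 1 to 5 passed in either direction, against these same shares of all genes. Which members passed changed with the array left out. Without SL5, tbb-4 and klp-11 were lower and neither tba-7 nor mec-7 passed, and without SL4 only dyci-1 passed. Without SL9, tba-7 and tbb-4 were lower, and the member higher was klp-7, not tbg-1. Trend and robust settings gave 1 member lower, tba-7 (2.48% of all genes), with mec-7 lost. Of the 88 partners 1 passed in either direction there, against 1.97% of all genes higher and 2.48% lower. Array weights, median centring and cyclic loess each gave 3 members lower, against 2.74%, 3.06% and 2.65% of all genes. With array weights these were tba-7, dyci-1 and dlc-2, and mec-7 was lost. Median centring gave tba-7, mec-7 and dlc-2, and cyclic loess gave tba-7, mec-7 and dyci-1. With title runs as blocks 3 were lower, against 4.29% of all genes, with dlc-2 and dyci-1 gained and mec-7 lost. In that fit 6 of the 88 partners passed in either direction, against 3.04% of all genes higher and 4.29% lower. Gene means gave 1 lower, tba-7 (2.24%), with mec-7 lost. Among probe sets ending in _at, 0 members were higher and 0 lower, against 2.19% and 2.74% of all genes, and 8 of 23 differences were above zero, against 50% of all genes. The sets of tba-7, mec-7 and tbg-1 all end in _s_at or _x_at, so that fit did not hold these members and could not test their calls. The filter at the yeast controls gave 1 of 79 partners in either direction, against 1.55% of all genes higher and 3.05% lower. Its median was -0.0034 over the members, against -0.01 over all genes. The next brightest probe sets gave 2 members higher, 1 lower and 1 without overlap, a median of -0.0069, and for dyci-1 a reversed difference of 0.40.

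Over 352 comparisons of a named member with an alternative, 302 kept sign and side of the unadjusted threshold, 18 lost the threshold, 12 gained it, 1 reversed and 19 changed sign with no p under the threshold on either side. Only tba-7, mec-7 and tbg-1 were under the threshold in the main fit, so all 18 losses were theirs. The other named members had no threshold to lose, so the 302 do not measure how stable these calls were. The causes were not tested.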
